A study of Mus musculus with 2 samples.

Results

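The nuclei described here are those of the adult mouse ventral midbrain in which at least 1 unique molecular identifier (UMI, the tag that counts each captured RNA molecule once) of Slc17a6 was read. Slc17a6 encodes the vesicular glutamate transporter VGLUT2 and spans chromosome 7 from 51622006 to 51671119 on the plus strand of mm10 (gene ENSMUSG00000030500, protein coding). The members were chosen by this count alone, among nuclei with 500 or more detected features, and were 249 of 12065 such nuclei. They were then divided by the summed UMIs of Th, Slc6a3 and Ddc, which encode tyrosine hydroxylase, the dopamine transporter and aromatic amino acid decarboxylase. A sum of 3 or more put 177 members in the dopaminergic class, and a sum of 0 to 2 put 72 members in the weakly dopaminergic class.

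All nuclei came from mice carrying Dat-IRES-Cre and CAG-Sun1/sfGFP, so that Cre from the Dat locus (Slc6a3) switches on a green fluorescent protein at the nuclear envelope, and GFP+ single nuclei were sorted. One library pooled 2 adult males and the other pooled 3 adult females, which makes 2 samples of 1 untreated group with no control genotype. Since Cre marks a nucleus for life, the sort also keeps nuclei that transcribed Slc6a3 only earlier. Sex, pool and library cannot be told apart, and no male to female difference was tested.

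Glutamate is loaded into synaptic vesicles by 3 related transporters, VGLUT1 (Slc17a7), VGLUT2 (Slc17a6) and VGLUT3 (Slc17a8). A minority of midbrain dopamine neurons transcribes Slc17a6 and can release glutamate as well as dopamine. VGLUT2 is also the main vesicular glutamate transporter of glutamatergic neurons that lie among the dopamine neurons, and it marks one of the dopamine neuron subtypes that the study labelled genetically.

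The male library held 120 members of 6556 kept nuclei, 1.83% (exact 95% binomial interval 1.52 to 2.18), and the female library 129 of 5509, 2.34% (1.96 to 2.78). Slc17a6 was sparse in both libraries. In the male library 114 members carried 1 Slc17a6 UMI and 6 carried 2, and in the female library 122 carried 1 and 7 carried 2. No nucleus carried more. Just outside the feature threshold lay 1 male nucleus with Slc17a6 at 454 features and 1 female nucleus at 451, and the members with the fewest features had 652 and 543. Around the class threshold, 11 male and 5 female members had a sum of exactly 2, and 18 and 13 a sum of exactly 3. The intervals cover counting error only.

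Total UMIs per member ran from 921 to 19181 in the male library with a median of 3382, and from 703 to 31614 in the female library with a median of 3266. The kept nuclei as a whole had medians of 2730.5 and 3016 UMIs. Each member was therefore compared with 5 nuclei without a Slc17a6 UMI, taken from the same library and nearest in depth, and the medians of these 600 male and 645 female nuclei were 3380.5 and 3265 UMIs. The files of the 2 libraries shared 6 cell barcodes, none of them between members.

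A single UMI can also come from free RNA in a droplet, so the share of Slc17a6 nuclei was set beside that among nuclei with a UMI of Anxa1, a gene that marks another dopamine neuron subtype of the study. Whether those nuclei lack Slc17a6 transcripts of their own is not known from these data. Slc17a6 was read in 6 of 256 male Anxa1 nuclei, 2.34% (0.865 to 5.03) at a median of 3650 UMIs, and in 4 of 260 female Anxa1 nuclei, 1.54% (0.421 to 3.89) at a median of 3737.5. Both intervals include the share over all kept nuclei, which are shallower. The part of free RNA was not tested, and the members are called Slc17a6 nuclei, and not VGLUT2 neurons. Among nuclei with a UMI of Sox6 the share was 1.58% (1.17 to 2.08) and 1.85% (1.38 to 2.41), and with Calb1 it was 3.02% (2.02 to 4.34) and 2.80% (1.76 to 4.21) for the male and the female library. Thinned to 1000 UMIs per nucleus, 0 of 343 male Calb1 nuclei (0 to 1.07%) and 2.12% (0.782 to 4.56) of female Calb1 nuclei held Slc17a6, against 0.571% (0.402 to 0.786) and 0.860% (0.630 to 1.15) of all nuclei, and thinned to 2000 UMIs the Calb1 shares were 1.57% (0.635 to 3.21) and 0.744% (0.154 to 2.16) against 1.14% and 1.02%, so no difference for Calb1 held across libraries and depths.

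Slc17a6 was read most often where dopaminergic transcripts were few. Because deeper nuclei have more chances to yield any UMI, each nucleus of at least 1000 UMIs was thinned at random to 1000, which left 6484 male and 5348 female nuclei. In the male library the share with Slc17a6 was then 1.29% (0.740 to 2.09) at a Th, Slc6a3 and Ddc sum of 0, 0.834% (0.467 to 1.37) at 1, 0.125% (0.0151 to 0.450) at 2 and 0.217% (0.0591 to 0.554) at 3 or more. In the female library it was 1.64% (0.875 to 2.78), 1.05% (0.589 to 1.73), 0.690% (0.316 to 1.31) and 0.494% (0.226 to 0.936). The intervals of the lowest and the highest sum did not overlap in the male library and overlapped narrowly in the female library. Thinned to 2000 UMIs, which left 4722 and 4305 nuclei, they overlapped in both, at 2.42% (0.893 to 5.19) against 0.909% (0.610 to 1.30) in the male and 3.57% (0.982 to 8.89) against 0.901% (0.604 to 1.29) in the female library. Without thinning, 2.52% (1.78 to 3.46) of male nuclei with a sum of 0 to 2 and 1.63% (1.30 to 2.02) of those with 3 or more held Slc17a6, against 3.84% (2.69 to 5.30) and 2.04% (1.66 to 2.50) in the female library, although the nuclei with the low sum were shallower, with medians of 1825 and 1783 UMIs against 3107.5 and 3356.

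**Figure D1:**
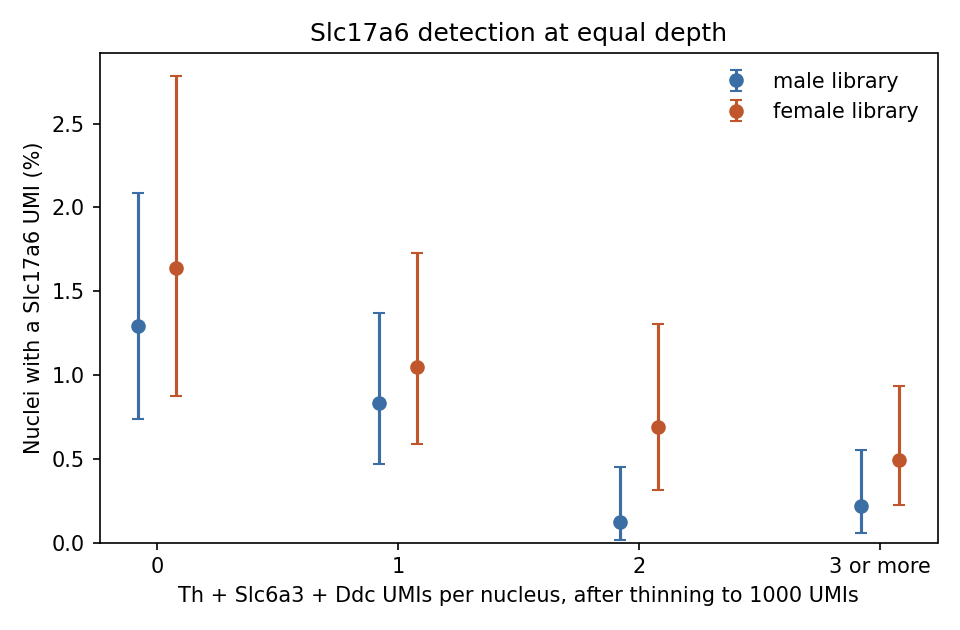
Share of nuclei with a Slc17a6 UMI (vertical axis, percent) by their summed Th, Slc6a3 and Ddc UMIs (horizontal axis) after thinning every nucleus to 1000 UMIs. Points are the male and the female library, bars exact 95% binomial intervals, and in both the share at a sum of 0 (1.29% and 1.64%) lies above that at 3 or more (0.217% and 0.494%).

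At matched depth the weakly dopaminergic class was larger among members. It held 37 of 120 male members, 30.8% (22.7 to 39.9), against 109 of 600 matched nuclei, 18.2% (15.2 to 21.5). In the female library it held 35 of 129 members, 27.1% (19.7 to 35.7), against 121 of 645, 18.8% (15.8 to 22.0). The male intervals did not overlap and the female intervals did. Most members nevertheless carried dopaminergic transcripts, and only 11 male and 10 female members had none of the 3.

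Of the 3 genes themselves, Slc6a3 was called lower in members by edgeR. Slc6a3 stood at 363 CPM (UMIs scaled to a total of 1e+06 per set) in male members and 509 in their matched nuclei, and at 581 and 667 in the female library. It was lower, at -0.35 ± 0.10 on the log2 scale (fitted fold change and SE, adjusted p = 0.0172 by edgeR's quasi-likelihood test on library sums with Benjamini-Hochberg adjustment, the test behind each adjusted p below unless another tool is named), and DESeq2 did not call it (adjusted p = 0.684). Th was at 265 against 324 CPM and 345 against 426, a difference that did not pass (adjusted p = 0.074). Ddc, at 794 against 944 and 830 against 918, did not pass either (adjusted p = 0.205). Members were below their matched nuclei in both libraries for all 3 genes, and only Slc6a3 passed.

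Across all genes, 217 of 10387 tested were higher in members than in matched nuclei (2.09%) and 126 lower (1.21%). DESeq2 called 46, 34 higher and 12 lower, and edgeR had called each of these. With 2 libraries this comparison rests on 4 sums and 1 residual degree of freedom. Each p-value sets the shift in these 2 pools against a spread that edgeR estimates partly from the other genes. It does not measure variation among animals.

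The gene with the smallest adjusted p was Rbfox1, which encodes a neuronal splicing factor. It was read in 80 of 120 male and 86 of 129 female members, at 1692 and 1340 CPM against 674 and 568 in matched nuclei, a log2 fold change of 1.26 ± 0.08 (edgeR adjusted p = 2.1e-35, DESeq2 adjusted p = 1.51e-19). Arpp21, which encodes a cAMP-regulated phosphoprotein, was at 169 and 87.1 CPM against 39.7 and 31.5 (1.77 ± 0.18, DESeq2 adjusted p = 0.00031). Ebf2, an early B cell factor family transcription factor, was at 85.3 and 68.1 CPM against 21.8 and 20.2 (1.82 ± 0.24, DESeq2 adjusted p = 0.0057). Members exceeded matched nuclei in both libraries for each of the 3 genes. Arpp21 was nevertheless read in a minority of members, 36 male and 23 female nuclei, and Ebf2 in 20 and 21.

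Without thinning, the share of Slc17a6 nuclei among nuclei with these transcripts was 5.73% (4.05 to 7.85) of 628 male and 6.23% (3.99 to 9.21) of 369 female Arpp21 nuclei, and 5.85% (3.61 to 8.89) of 342 and 6.54% (4.09 to 9.83) of 321 Ebf2 nuclei, at medians of 3247, 3588, 3059.5 and 3349 UMIs. Thinned to 1000 UMIs it was 1.81% (0.589 to 4.16) and 0.813% (0.0206 to 4.45) for Arpp21 and 2.07% (0.429 to 5.93) and 3.45% (0.947 to 8.59) for Ebf2, so that the female Arpp21 share, 1 of 123 nuclei, lay below the 0.860% of all female nuclei. At 2000 UMIs the Arpp21 shares were 2.35% (0.9495 to 4.78) and 3.72% (1.51 to 7.52), against 1.14% and 1.02% of all nuclei. Those for Ebf2 were 1.72% (0.357 to 4.96) and 2.41% (0.66 to 6.05). At this depth only the female Arpp21 interval lay wholly above the share of all nuclei. These genes were singled out after their values were seen, so the shares describe the same pattern and are not a test of it. Of all male members 61 (50.8%, 41.6 to 60.1) carried a UMI of Arpp21, Ebf2, Tcf7l2 or Pde7b, and of female members 54 (41.9%, 33.2 to 50.9), against 20.2% (17.03 to 23.6) and 20.5% (17.4 to 23.8) of matched nuclei.

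The 12 higher genes with the largest fold changes under the naming rule included Lef1, Tcf7l2 and Slc7a14. Tcf7l2, whose product binds beta-catenin and which thalamic and midbrain glutamatergic neurons express, was at 27.7 CPM in male and 45.9 CPM in female members against 7.69 and 5.79 in matched nuclei (log2 fold change 2.48 ± 0.36, adjusted p = 6.9e-09). The signal came from few nuclei, 7 male and 10 female, and 19 of the 29 female UMIs lay in 3 of them. Lef1, from the same transcription factor family, had 7 UMIs in 6 male members and 15 in 6 female members, against 4 and 9 UMIs in 5-fold more matched nuclei (3.00 ± 0.52, adjusted p = 2e-06). Slc7a14, a lysosomal amino acid transporter family gene, was spread more evenly, in 18 male and 19 female members at 49.1 and 38.0 CPM against 9.83 and 9.0 (2.16 ± 0.33, adjusted p = 4.6e-08). DESeq2 gave no adjusted p for these 3 genes. Leaving out the deepest 5% of nuclei kept Tcf7l2 at 2.20 (adjusted p = 0.00031) and Slc7a14 at 2.42 (adjusted p = 8.05e-09), while Lef1 fell below the filter on low counts. Without nuclei holding a UMI of Gad1, Gad2 or Slc32a1, Tcf7l2 was at 3.19 and Lef1 at 5.47. The size of the Lef1 value is uncertain, since even before this removal members held 7 and 15 UMIs and matched nuclei 4 and 9.

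Ndnf, Rreb1 and Kcns3 were among the genes lower in members. Ndnf, which encodes a secreted neurotrophic factor, was at 29.9 CPM in male and 42.8 CPM in female members against 92.3 and 117 in matched nuclei (-1.54 ± 0.21, edgeR adjusted p = 3.5e-10, DESeq2 adjusted p = 0.0159), and without the deepest 5% of nuclei the log2 fold change was -2.33. Rreb1, a zinc finger transcription factor gene, was at 446 and 768 CPM against 767 and 1376 (-0.84 ± 0.09, DESeq2 adjusted p = 2.23e-06). Kcns3, a modulatory potassium channel subunit gene, was at 55.5 and 90.3 CPM against 139 and 165 (-1.06 ± 0.16, edgeR adjusted p = 4.9e-08), and DESeq2 did not call it (adjusted p = 0.0516). Both Ndnf and Kcns3 were read in many matched nuclei, Ndnf in 132 male and 177 female and Kcns3 in 212 and 261.

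The dopaminergic class was then compared with dopaminergic nuclei matched in depth. The sides were not alike in the 3 rule genes, whose summed UMIs had a median of 6 in male and 8.5 in female members against 7 and 10 in matched nuclei. The class held 83 male and 94 female members with medians of 3778 and 4408 UMIs, against 415 and 470 matched nuclei with 3776 and 4407.5. Since Th, Slc6a3 and Ddc set the classes they were left out of these tests. Of 7064 genes tested, 99 were higher (1.4%) and 37 lower (0.524%), and DESeq2 called 34 higher and 2 lower, each also called by edgeR.

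The leading higher genes of the class were Tcf7l2, Gulp1, Slc7a14 and Rorb. Tcf7l2 was at 29.3 CPM in male and 42.2 CPM in female dopaminergic members and at 3.21 and 3.57 in matched nuclei (log2 fold change 3.34 ± 0.53, edgeR adjusted p = 4.9e-05, DESeq2 adjusted p = 0.000521), from 6 and 8 members. Gulp1, an engulfment adaptor gene, was at 24.0 and 33.4 CPM against 5.35 and 2.86 (2.86 ± 0.53, DESeq2 adjusted p = 0.000502), from 5 and 7 members. Rorb, a nuclear receptor gene, was at 18.7 and 33.4 CPM against 4.28 and 7.86 (2.04 ± 0.51, adjusted p = 0.0202), and DESeq2 did not call it (adjusted p = 0.193). For Tcf7l2, Gulp1 and Rorb fewer than 10 members in each library held a UMI.

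Sorcs1, Edil3 and Plekhg1 were read in more members. Sorcs1, a sorting receptor gene, was at 107 and 100 CPM in male and female dopaminergic members against 40.1 and 20.7 in matched nuclei (1.81 ± 0.24, DESeq2 adjusted p = 0.000421), and was read in 19 members of each library. Edil3, an integrin ligand gene, was at 104 and 94.9 CPM against 34.2 and 25.0 (1.73 ± 0.22, DESeq2 adjusted p = 1.72e-05), from 22 and 23 members. Plekhg1, a guanine nucleotide exchange factor gene, was at 66.7 and 102 CPM against 26.7 and 25.4 (1.71 ± 0.25, adjusted p = 1.2e-05), but 44 of its 58 female UMIs lay in 3 nuclei, and without the deepest 5% of nuclei it no longer passed (0.89, adjusted p = 0.257).

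On the lower side, Ndnf was at 37.3 and 45.7 CPM in male and female dopaminergic members against 97.9 and 125 (-1.46 ± 0.22, DESeq2 adjusted p = 0.0201, and -2.18 without the deepest 5% of nuclei), and Rreb1 at 531 and 814 CPM against 823 and 1447 (-0.78 ± 0.12, DESeq2 adjusted p = 0.0201). Ifi35, an interferon-induced gene, was at 18.7 and 21.1 CPM against 66.3 and 65.7 (-1.74 ± 0.30, edgeR adjusted p = 0.00014, DESeq2 adjusted p = 0.0771, and -2.58 without the deepest 5% of nuclei). Kcns3, Kank4, Lrmda and Qk were also lower by edgeR and not by DESeq2. Ndnf and Rreb1 were the 2 lower genes called by both tools.

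The weakly dopaminergic class was smaller and shallower, with 37 male and 35 female members at medians of 2259 and 1594 UMIs and 185 and 175 matched nuclei at 2252 and 1593. The summed UMIs of the rule genes had a median of 1 on both sides in each library. Together with Slc18a2, however, these genes stood at 586 CPM in male and 996 CPM in female members, against 801 and 1548 in matched nuclei. The sides were thus not alike in dopaminergic transcripts, and the part of this in the calls of the class was not tested. Of the same 7064 genes, 20 were higher (0.283%) and 28 lower (0.396%). DESeq2 called 14 higher and 23 lower, 30 of these 37 also by edgeR. Without the library term in the model none passed.

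Rbfox1 was again among the higher genes, at 3336 CPM in male and 2891 CPM in female weakly dopaminergic members against 1737 and 976 in matched nuclei (log2 fold change 1.15 ± 0.14, edgeR adjusted p = 3.7e-06, DESeq2 adjusted p = 1.65e-05). Ebf2 was at 224 and 209 CPM against 53.5 and 86.7 (1.65 ± 0.35, adjusted p = 0.0077), from 8 and 6 members. Rtl4, a retrotransposon-derived gene, was at 309 and 289 CPM against 109 and 73.9 (1.62 ± 0.32, adjusted p = 0.004), and Cep112, a centrosomal protein gene, at 320 and 241 CPM against 133 and 89.9 (1.27 ± 0.29, adjusted p = 0.0157). In both libraries the members lay above their matched nuclei for each of these 4 genes. Cep112 no longer passed without nuclei holding oligodendrocyte transcripts (1.07, adjusted p = 0.214).

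Tll1, Col25a1, Sv2c and Drd2 were among the genes lower in this class. Tll1, a metalloproteinase gene, had 1 UMI in male and 4 in female members, at 10.7 and 64.2 CPM, against 225 and 167 CPM in matched nuclei (-2.69 ± 0.53, edgeR adjusted p = 0.004, DESeq2 adjusted p = 0.0064). Col25a1, which encodes a transmembrane collagen, was at 85.3 and 257 CPM against 510 and 530 (-1.79 ± 0.28, DESeq2 adjusted p = 0.000109). Sv2c, a synaptic vesicle glycoprotein gene abundant in dopamine neurons, was at 181 and 193 CPM against 561 and 421 (-1.47 ± 0.27, DESeq2 adjusted p = 0.0019). Drd2, the dopamine autoreceptor gene, had 4 and 3 UMIs in members, at 42.6 and 48.2 CPM against 186 and 206 (-2.16 ± 0.44, adjusted p = 0.0061).

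The classes consist of different nuclei of the same libraries, with different matched nuclei. Of the genes called higher, 13 were called in both, which is 13.1% of the dopaminergic and 65.0% of the weakly dopaminergic list. They were Arpp21, Car10, Ebf2, Grik2, Il1rapl1, Kcnd2, Kcnip1, Nxph1, Pde7b, Rbfox1, Ryr2, Tafa2 and Tnik. Of the genes called lower, 10 were called in both, 27.0% and 35.7% of the lists: Adamtsl1, Col25a1, Drd2, Fam184a, Kcnj6, Lrmda, Nwd2, Qk, Rgs6 and Rreb1. No gene was called in opposite directions. Without nuclei holding oligodendrocyte transcripts 9 of the 13 and 2 of the 10 were still called in both classes, with DESeq2 5 and 1, with the class threshold at 0 to 1 UMIs 1 and 0, and without the library term 0 and 0. Without oligodendrocyte transcripts Arpp21 and Kcnip1 lost their weakly dopaminergic call, at log2 fold changes of 1.20 and 1.08 (adjusted p = 0.138 and 0.0562). With all nuclei these were 1.27 and 1.05. Fam184a, Kcnj6, Lrmda and Nwd2 also lost it, at -1.09, -0.96, -1.77 and -1.84 (adjusted p = 0.0684, 0.0778, 0.0953 and 0.0586). With all nuclei they were at -1.11, -0.98, -1.82 and -1.64.

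Grik2, Il1rapl1, Kcnip1 and Kcnd2 were among the 13 shared higher genes. Grik2, a kainate receptor subunit gene, was at 584 and 587 CPM in male and female dopaminergic members against 340 and 375, and at 1162 and 1269 in weakly dopaminergic members against 606 and 668 (log2 fold changes 0.67 ± 0.12 and 0.88 ± 0.15, DESeq2 adjusted p = 0.00307 and 0.000109). Il1rapl1, a synaptic adhesion gene, was at 896 and 942 CPM against 494 and 529, and at 1940 and 2136 against 1216 and 1368 (0.81 ± 0.11 and 0.61 ± 0.13, DESeq2 adjusted p = 3.68e-06 and 0.0019). Kcnip1, a potassium channel interacting protein gene, was at 141 and 120 CPM against 66.3 and 52.5, and at 309 and 482 against 176 and 180 (1.10 ± 0.19 and 1.05 ± 0.25, adjusted p = 0.00012 and 0.0252). Kcnd2, the Kv4.2 channel gene, was in the dopaminergic class at 795 and 643 CPM against 515 and 504 (0.45 ± 0.12, adjusted p = 0.0315), where DESeq2 did not call it (adjusted p = 0.479). In the weakly dopaminergic class both tools called it (0.81 ± 0.15, edgeR adjusted p = 0.0024, DESeq2 adjusted p = 0.00112).

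The shared genes also included a phosphodiesterase gene, a kinase gene and Car10, a carbonic anhydrase-related gene. Pde7b, a cAMP phosphodiesterase gene, was at 80.0 and 58.0 CPM in male and female dopaminergic members against 19.8 and 15.0, and at 171 and 128 in weakly dopaminergic members against 36.4 and 45.0 (1.93 ± 0.27 and 1.89 ± 0.42, adjusted p = 4.7e-06 and 0.0157). Tnik, a kinase gene of the Wnt pathway, was at 229 and 146 CPM against 95.2 and 69.3, and at 682 and 562.1 against 332 and 276 (1.13 ± 0.16 and 0.98 ± 0.19, DESeq2 adjusted p = 8.25e-05 and 0.0019). Car10 was at 256 and 193 CPM against 96.3 and 102, and at 650 and 482 against 233 and 305 (1.11 ± 0.16 and 1.09 ± 0.22, DESeq2 adjusted p = 0.00236 and 0.00571).

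**Figure D2:**
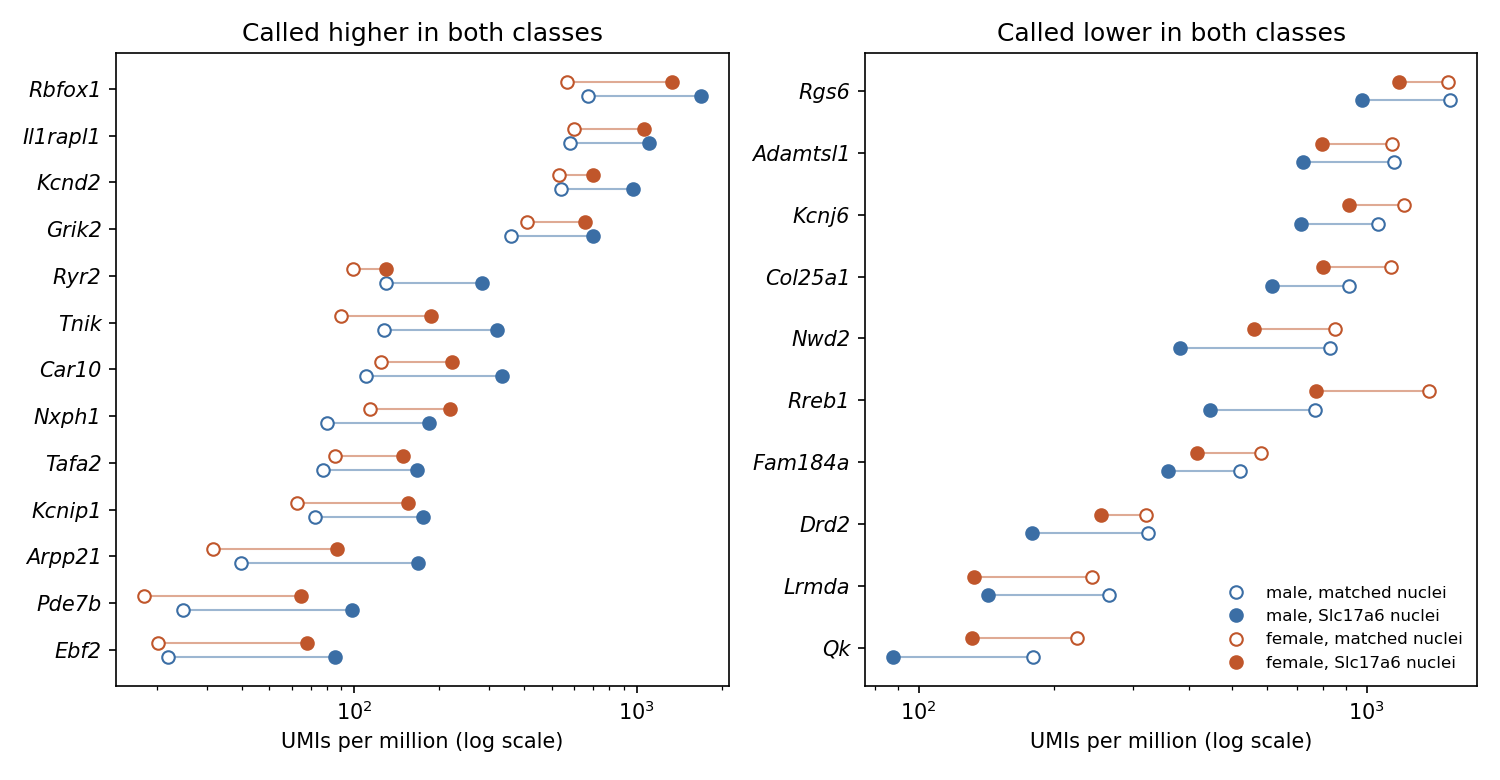
CPM (horizontal axis, log scale) of the 13 genes called higher and the 10 called lower in both classes, summed over all Slc17a6 nuclei (filled) and their depth-matched nuclei (open) of the male and the female library. Every filled point lies on the same side of its open point in both libraries, from Ebf2 at 85.3 and 68.1 against 21.8 and 20.2 to Rgs6 at 977 and 1177 against 1530 and 1517. The genes were chosen by these calls.

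Whether Slc17a6 goes with a different shift in the 2 classes was tested as the difference between their fold changes. Of 7064 genes none passed in either direction (0.0%) by edgeR, DESeq2 or limma-voom, and 394 had an unadjusted edgeR p under 0.05. For Drd2 the fold change in the weakly dopaminergic class was lower by -1.69 ± 0.49 on the log2 scale (adjusted p = 0.618), and for Tcf7l2 by -3.08 ± 0.86 (adjusted p = 0.61). Tcf7l2 did not pass in the weakly dopaminergic class on its own (0.25 ± 0.76, adjusted p = 0.976), but the difference from the dopaminergic class was not established. Among the alternatives, unmatched nuclei gave 10 calls for the difference between classes, 1 higher and 9 lower. Classes at 0 to 4 and 5 or more UMIs also gave 10, 1 higher and 9 lower.

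Of 18 dopaminergic identity genes, 18 were tested over all members, 1 was higher and 2 were lower, where 2.09% and 1.21% of all genes tested were. Their median log2 fold change was -0.27, beside -0.00078 over all genes tested. Kcnj6, the GIRK2 channel gene, was at 713 and 914 CPM in members against 1059 and 1213 (-0.51 ± 0.09, edgeR adjusted p = 2.3e-06, DESeq2 adjusted p = 0.0193). Drd2 was at 179 and 255 CPM against 325 and 322 (-0.58 ± 0.12, edgeR adjusted p = 9.7e-05, DESeq2 adjusted p = 0.223). Lmx1a, a transcription factor gene of the dopaminergic lineage, was higher, at 102 and 98.2 CPM against 70.1 and 61.7 (0.59 ± 0.17, edgeR adjusted p = 0.0279, DESeq2 adjusted p = 1).

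Within the classes, 16 genes of this list were tested and Drd2 and Kcnj6 were lower in each by edgeR. Of all genes tested, 0.524% were lower in the dopaminergic and 0.396% in the weakly dopaminergic class. DESeq2 called neither gene in the dopaminergic class (adjusted p = 1 and 0.74). In the weakly dopaminergic class it called Kcnj6 (adjusted p = 0.0173) and gave no adjusted p for Drd2. The median of the list was -0.21 in the dopaminergic and -0.77 in the weakly dopaminergic class, beside -0.0024 and -0.048 over all genes. Nr4a2, the Nurr1 gene, was at 200 and 186 CPM in male and female dopaminergic members against 188 and 184 (0.01 ± 0.15, adjusted p = 0.996). In weakly dopaminergic members it had 9 male UMIs and 1 female UMI, at 95.9 and 16.1 CPM against 171 and 157 (-1.42 ± 0.42, adjusted p = 0.13). Slc18a2, the vesicular monoamine transporter gene, was at 368 and 1032 CPM against 482 and 1100 in the dopaminergic class (-0.25 ± 0.12, adjusted p = 0.487) and at 192 and 514 against 319 and 854 in the other (-0.78 ± 0.22, adjusted p = 0.0991).

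Of 18 genes that separate dopamine neuron subtypes, 14 were tested over all members, 2 were higher and 4 lower, where 2.09% and 1.21% of all genes tested were, and the median was -0.32 beside -0.00078 over all genes. Tmem163, a zinc transporter gene, was higher, at 61.9 and 91.9 CPM against 33.8 and 32.5 (1.22 ± 0.21, edgeR adjusted p = 2.1e-06, DESeq2 adjusted p = 0.199), and Tafa2, a secreted protein gene, at 166 and 149 CPM against 77.3 and 85.2 (0.91 ± 0.15, edgeR adjusted p = 2.6e-07, DESeq2 adjusted p = 0.0793). Lower were Ndnf, Col25a1, Tacr3 and Sox6. Sox6, a transcription factor gene of the ventral tier, was at 256 and 342 CPM against 358 and 399 (-0.36 ± 0.11, adjusted p = 0.0317), and its difference grew to -0.67 (adjusted p = 0.000104) without the deepest 5% of nuclei. DESeq2 did not call it (adjusted p = 0.941). Within each class 10 genes of this list were tested by edgeR. In the dopaminergic class Tafa2 and Tmem163 were higher and Col25a1 and Ndnf lower, where 1.4% and 0.524% of all genes tested were. In the weakly dopaminergic class Tafa2 was higher and Col25a1 lower, where 0.283% and 0.396% were. Sox6 and Tacr3 were called in neither class.

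Calb1, the calbindin gene that marks dorsal tier dopamine neurons, did not pass the test. It was at 68.3 and 52.3 CPM in male and female members against 45.7 and 46.3 (0.34 ± 0.22, adjusted p = 0.649). Aldh1a1, the retinaldehyde dehydrogenase gene of the ventral tier, was at 105 and 177 CPM against 153 and 220 (-0.42 ± 0.13, adjusted p = 0.052), and without the deepest 5% of nuclei it was called lower (-0.86, adjusted p = 7.21e-05). Anxa1 was at 14.9 and 11.1 CPM against 15.0 and 23.8 (-0.66 ± 0.42, adjusted p = 0.634). Gsta4 had no UMI in members, which allows up to 6.4 and 4.75 CPM at 3 counts per library, above its 2.14 and 3.54 CPM in matched nuclei, so a difference was not detectable. Otx2 had 3 and 5 UMIs and Crhbp 3 and 4, and both were too few to test.

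Sox6 and Calb1 divided the members incompletely. Sox6 without Calb1 was read in 39 male members, 32.5% (24.2 to 41.7), against 47.8% (43.8 to 51.9) of matched nuclei, and in 45 female members, 34.9% (26.7 to 43.8), against 45.1% (41.2 to 49.0). Calb1 without Sox6 was read in 18 male members, 15.0% (9.14 to 22.7), against 9.33% (7.13 to 11.9), and in 15 female members, 11.6% (6.66 to 18.5), against 8.22% (6.22 to 10.6). Neither was read in 53 male members, 44.2% (35.1 to 53.5), and in 62 female members, 48.1% (39.2 to 57.0). The male intervals for Sox6 alone did not overlap, and the others did.

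**Figure D3:**
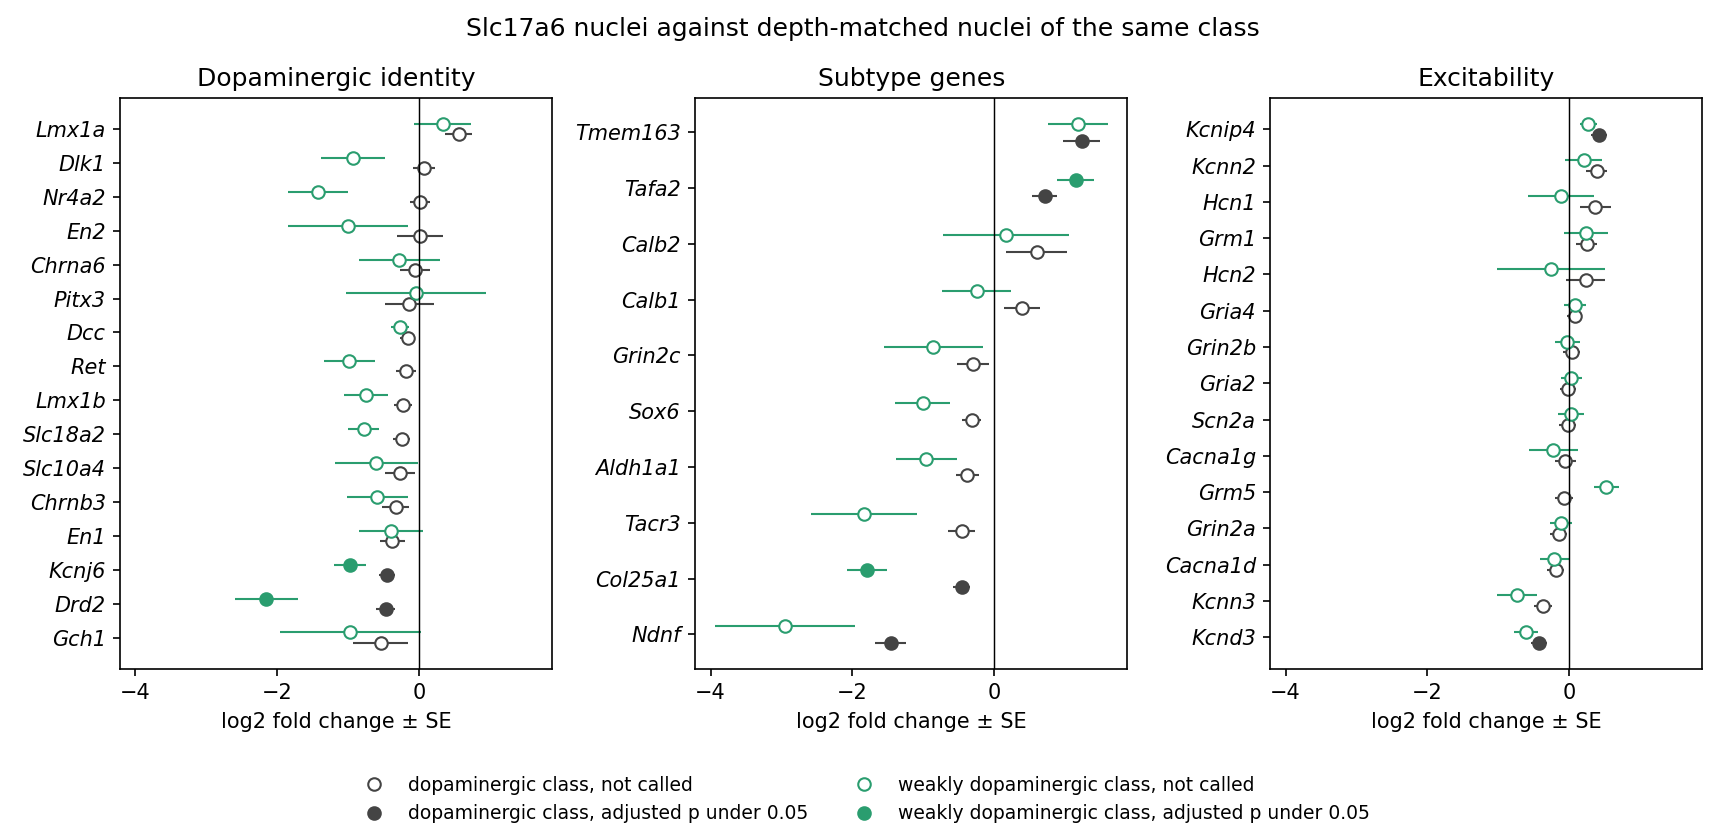
Log2 fold change with its SE (horizontal axis) of Slc17a6 nuclei against matched nuclei of their class, for the tested genes of the dopaminergic identity, subtype and excitability lists. Filled points passed an adjusted p of 0.05 by edgeR, and Kcnj6, Drd2 and Col25a1 were lower and Tafa2 higher in both classes.

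Of 8 genes that handle glutamate 6 were tested over all members, 0 were higher and Grik3 was lower, where 2.09% and 1.21% of all genes tested were. The median was 0.13, beside -0.00078 over all genes. Slc1a1, a neuronal glutamate uptake transporter gene, was at 49.1 and 38.0 CPM against 36.7 and 21.5 (0.58 ± 0.27, adjusted p = 0.337). Grik3, a kainate receptor subunit gene, was at 350 and 303 CPM against 448 and 393 (-0.39 ± 0.11, edgeR adjusted p = 0.0097, DESeq2 adjusted p = 0.669). Slc17a7 had no UMI in male and 2 in female members, and Slc17a8 had none in either. In the classes 6 of the genes were tested and none passed by edgeR. Of all genes tested, 1.4% were higher and 0.524% lower in the dopaminergic class, and 0.283% and 0.396% in the weakly dopaminergic class.

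Of 14 transcription factor genes of glutamatergic neurons, 4 had enough counts to test and 2 were higher, Tcf7l2 and Ebf3, where 2.09% of all genes tested were. Ebf3 was at 224 and 269 CPM against 164 and 197 (0.42 ± 0.12, edgeR adjusted p = 0.0161, DESeq2 adjusted p = 0.921). Foxp2 and Meis2 were tested and did not pass. Barhl1 and Pou4f1 had 1 UMI each over all members. Of 10 transcription factor genes of GABAergic neurons only Zfhx3 was tested, and it did not pass over all members (adjusted p = 0.67 and -0.12 ± 0.08). Of 14 neuropeptide genes only Cck was tested, at 6.4 and 12.7 CPM against 6.84 and 7.71 (0.41 ± 0.52, adjusted p = 0.889). Nts, Vip, Pdyn, Npw, Crh, Sst, Npy and Gal had no UMI in any member.

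Excitability genes moved in both directions. Of 16, all were tested over all members, 2 were higher and 2 lower, where 2.09% and 1.21% of all genes tested were, and the median was 0.015. Kcnip4, a Kv4 channel interacting protein gene, was at 7143 and 8152 CPM against 5438 and 5833 (0.41 ± 0.08, DESeq2 adjusted p = 0.00292), and Kcnn2, the SK2 channel gene, at 239 and 173 CPM against 156 and 144 (0.41 ± 0.13, edgeR adjusted p = 0.0463, DESeq2 adjusted p = 1, limma-voom adjusted p = 0.0516). Kcnd3, the Kv4.3 channel gene that shapes dopamine neuron pacemaking, was at 1054 and 1320 CPM against 1546 and 1635 (-0.45 ± 0.08, DESeq2 adjusted p = 0.0369), and Kcnn3, the SK3 channel gene, at 454 and 491 CPM against 639 and 606 (-0.42 ± 0.10, edgeR adjusted p = 0.0013, DESeq2 adjusted p = 0.308). Kcnd3 and Kcnip4 were also called in the dopaminergic class by edgeR (adjusted p = 0.0272 and 0.0358) and not by DESeq2 (adjusted p = 0.388 for both), and no gene of the list passed in the weakly dopaminergic class. In each class 15 genes of the list were tested. Of all genes tested, 1.4% were higher and 0.524% lower in the dopaminergic class, and 0.283% and 0.396% in the other.

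The 2 classes of members were also compared with each other, without matching for depth. Relative to dopaminergic members, 78 of 7064 genes were higher in weakly dopaminergic members (1.1%) and 94 lower (1.33%). DESeq2 called 121, each also called by edgeR. Genes that follow the 3 rule genes in dopamine neurons are partly set by the choice of the classes.

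Gad2, which encodes a GABA-synthesizing enzyme, had the largest fold change among the higher genes that met the naming rule. It was at 171 and 161 CPM in male and female weakly dopaminergic members against 21.3 and 15.8 in dopaminergic members (3.04 ± 0.51, adjusted p = 9.4e-05), from 5 members in each library, and 13 of 16 male UMIs lay in 3 nuclei. Matched nuclei without Slc17a6 differed in the same direction, with Gad2 at 70.7 and 35.3 CPM in the weakly dopaminergic and 8.02 and 8.57 CPM in the dopaminergic class, and the difference between the classes' fold changes did not pass (0.47 ± 0.64, adjusted p = 0.977). Grm8, a presynaptic metabotropic glutamate receptor gene, was at 544 and 514 CPM against 168 and 132 (1.75 ± 0.24, DESeq2 adjusted p = 1.46e-06). Cep112 was at 320 and 241 CPM against 56.0 and 58.0 (2.19 ± 0.32, DESeq2 adjusted p = 1.13e-06), and Ebf2 at 224 and 209 CPM against 50.7 and 52.7 (2.03 ± 0.36, DESeq2 adjusted p = 7.8e-05). Tafa2 was at 330 and 385 CPM against 125 and 123 (1.42 ± 0.26, DESeq2 adjusted p = 0.000368). All 5 genes were higher in both libraries.

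Lower in weakly dopaminergic members were 5 of the 16 tested dopaminergic identity genes, Drd2, Kcnj6, Nr4a2, Slc18a2 and Dlk1, where 1.33% of all genes tested were. None of the 16 passed when the classes' fold changes against matched nuclei were compared, with Kcnj6 at -0.53 ± 0.26 (adjusted p = 0.887). Slc18a2 was at 192 and 514 CPM against 368 and 1032 (-1.08 ± 0.22, DESeq2 adjusted p = 0.00421). Kcnj6 was at 288 and 385 CPM against 819 and 972 (-1.53 ± 0.21, DESeq2 adjusted p = 7.6e-06). Col25a1 was at 85.3 and 257 CPM against 747 and 858 (-2.44 ± 0.26, DESeq2 adjusted p = 2.76e-09), and Sox6 at 85.3 and 112 CPM against 299 and 367 (-1.88 ± 0.34, DESeq2 adjusted p = 0.00216). St3gal4 and Tmem232 had no UMI in weakly dopaminergic members, and no fold is given because the 48.2 CPM that 3 counts make in the female library exceeds their levels of 42.2 and 33.4 CPM in female dopaminergic members.

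Markers of other cell types were read at low levels. GABAergic markers (Gad1, Gad2 and Slc32a1) summed to 53.3 CPM in male and 30.1 CPM in female members against 23.1 and 9.32 in matched nuclei. Gad2 gave 24 of 25 male and all 19 female UMIs, Gad1 was at 0 in both libraries and Slc32a1 had 1 UMI in the male library. Gad2 itself was higher over all members, at 51.2 and 30.1 CPM against 18.4 and 8.68 (1.58 ± 0.33, adjusted p = 0.00016), and did not pass within the dopaminergic (1.06 ± 0.49, adjusted p = 0.448) or the weakly dopaminergic class (1.53 ± 0.43, adjusted p = 0.0933). Without nuclei that held a GABAergic marker UMI, Arpp21 had a log2 fold change of 2.02 over all members and Rbfox1 of 1.46, and both passed. Slc6a3, Sox6, Lmx1a, Ebf3 and Kcnn2 then no longer passed (adjusted p = 0.0576, 0.0655, 0.0679, 0.113 and 0.196), although their log2 fold changes were -0.33, -0.36, 0.58, 0.37 and 0.37 against -0.35, -0.36, 0.59, 0.42 and 0.41 with all nuclei. In the weakly dopaminergic class Ebf2 then fell to 1.25 and no longer passed (adjusted p = 0.274).

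The 6 oligodendrocyte markers, among them Mbp, Mog, Mobp, Mag and Cnp, summed to 117 and 91.9 CPM in male and female members against 129 and 62.0 in matched nuclei, with Mobp at 0 in the female members. Mbp, a myelin protein gene, was higher in the dopaminergic class, at 50.7 and 47.5 CPM against 24.1 and 17.1 (1.24 ± 0.30, edgeR adjusted p = 0.0122, DESeq2 adjusted p = 0.353). Without nuclei that held 3 or more UMIs of these markers other than Cnp, Tcf7l2 stayed at 3.49 in that class (adjusted p = 0.00125). Drd2, Col25a1 and Kcnj6 no longer passed in that class (adjusted p = 0.0788, 0.067 and 0.121), at log2 fold changes of -0.48, -0.47 and -0.43 against -0.47, -0.46 and -0.45 with all nuclei. Kcnd3, Kcnip4 and Mbp did not pass either (adjusted p = 0.0682, 0.0748 and 0.236), at -0.42, 0.41 and 1.21 against -0.43, 0.42 and 1.24.

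Markers of the remaining cell types were few or came from 1 gene. Astrocyte markers summed to 158 and 143 CPM against 171 and 186, of which Slc1a2, which neurons also transcribe, gave 72 of 74 and 89 of 90 UMIs, while Aqp4, Gfap and Gja1 were at 0 in members. Oligodendrocyte precursor markers gave 4 and 1 UMIs, with Sox10 the most abundant, endothelial markers 4 and 6 UMIs, mostly Pecam1, and serotonergic markers 1 and 0. The part of free RNA and of droplets with more than 1 nucleus in these values was not tested.

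**Figure D4:**
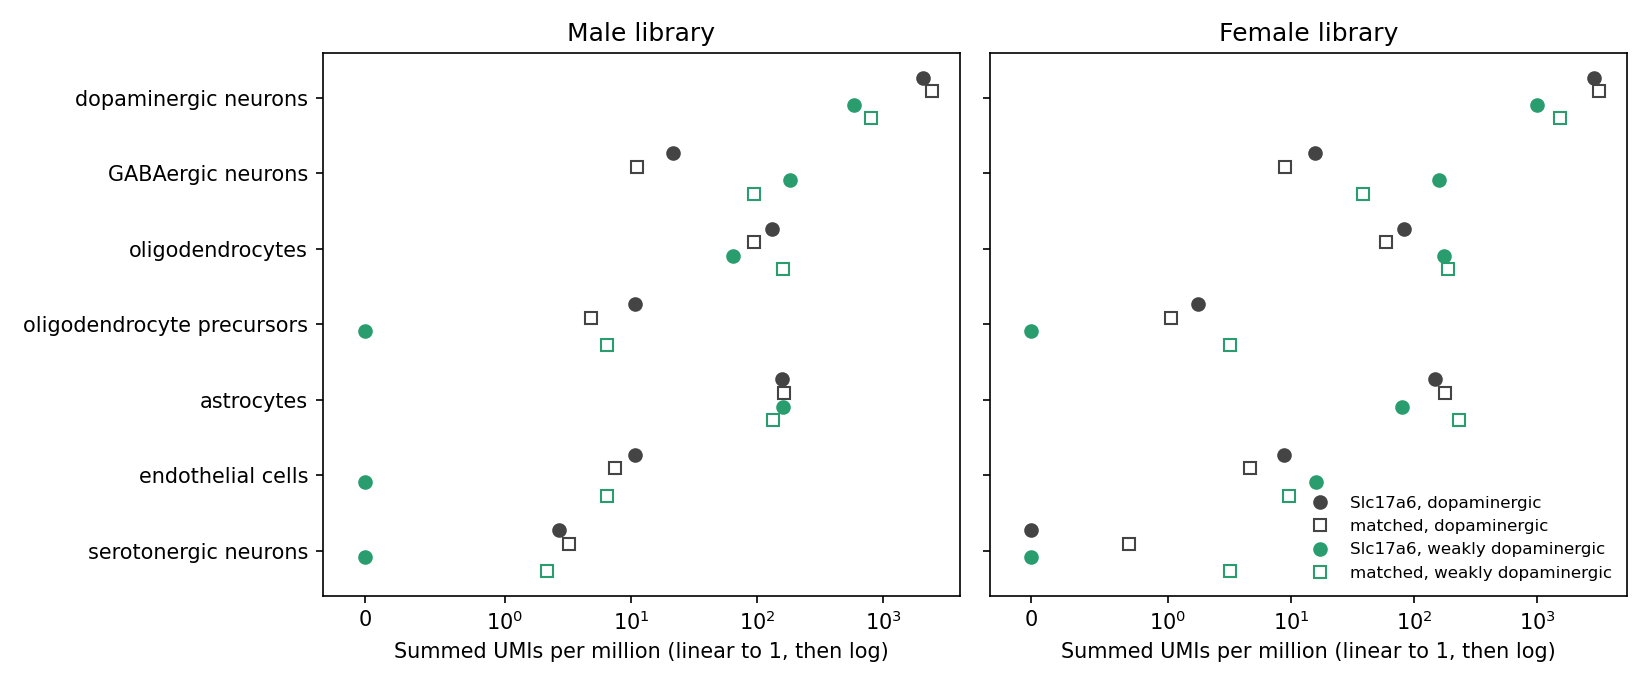
Summed CPM of 7 cell type marker lists (horizontal axis, linear up to 1 and logarithmic above) in Slc17a6 nuclei (filled circles) and matched nuclei (open squares) of each class and library. Dopaminergic markers exceed every other list in every set, and GABAergic markers are highest in the weakly dopaminergic members (181 and 161 CPM). The dopaminergic list holds the genes that set the classes.

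The 13 members with 2 Slc17a6 UMIs had median depths of 3279 and 5332 UMIs, 4 of 6 male and 6 of 7 female nuclei were in the dopaminergic class, 3 in each library carried Sox6, 1 in each carried Calb1 and 3 in each carried Arpp21.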

How the data were processed

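Nuclei labelled through Dat-IRES-Cre were sorted by the authors and sequenced as 2 droplet libraries (10x Genomics 3' chemistry). The authors deposited raw UMI counts per gene and nucleus, aligned to mm10 with introns included. The submitters' processing notes name Cell Ranger 6.0.0 and Seurat 4.0.2. No normalized values or annotation of nuclei were used. The files hold 6594 male and 5557 female nuclei with 21631906 and 19870131 UMIs.

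Nuclei with under 500 features were left out. No doublet caller was run. The sort was gated on singlets before droplets were loaded, so it cannot remove droplets with more than 1 nucleus. The study judged a cluster of these nuclei to be likely doublets of dopamine neurons and oligodendrocytes. As alternatives, the deepest 5% of nuclei or the nuclei with oligodendrocyte transcripts were left out. Leaving out the deepest 5% kept 110 of 120 male and 102 of 129 female members. All members lost were of the dopaminergic class, which went from 83 to 73 male and from 94 to 67 female members. The summed UMIs of members fell from 468712 to 367565 (male) and from 631253 to 311490 (female), so the deepest nuclei weigh heavily in the female CPM. Counts were summed per set and library and fitted in edgeR 4.0.16 (TMM, filterByExpr, quasi-likelihood) with library as a block. The fit over all members had 4 sums, that over the classes 8. DESeq2 1.42.0 and limma-voom (limma 3.58.1) were alternatives, the latter added after the data were seen, as was the removal of nuclei with a GABAergic UMI. An adjusted p under 0.05 was a call. CPM scale each set's UMIs to a total of 1e+06, without TMM. Scripts were tested on simulated data.

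Named genes are the fixed lists, the study's subtype genes and, per comparison, up to 12 genes each way with the largest fold, the same sign in both libraries and a UMI in 5 or more nuclei of the higher set in each. Of those named by the rule, the text gives a part. Genes called in both classes were named after their values were seen. Symbols of Gm plus digits or ending in Rik, mitochondrial genes and 6 genes that mark sex (Xist, Tsix and Y-linked genes) were not named, while other X-linked genes could be. Members and lists were chosen with earlier results of these data known. Gene positions are from GENCODE M21. Values of a few single genes are not reported here.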

Additional observations from a re-analysis of the deposited data

How the results depend on the processing

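Over all members 343 genes were called. The number was 148 with 3 matched nuclei per member, 74 of 1571 tested with members of 2 or more Slc17a6 UMIs, 46 with DESeq2 and 29 without the library block. In the dopaminergic class 136 were called, against 257 with unmatched nuclei, 36 with DESeq2 and 24 without the block. In the weakly dopaminergic class 48 were called, against 117 with unmatched nuclei, 80 with 1000 or more features, 2 with classes at 0 to 1 and 2 or more UMIs, 229 with classes at 0 to 4 and 5 or more, 28 without oligodendrocyte transcripts, 73 with limma-voom and 0 without the block. The difference between classes gave 10 calls with unmatched nuclei and 10 with classes at 0 to 4 and 5 or more. Between the classes of members 172 were called, against 262 with unmatched nuclei, 298 with classes at 0 to 4 and 5 or more, 114 without the deepest 5% of nuclei and 71 without the block. The cause was not tested. The share of nuclei with Slc17a6 fell from 1.83% to 0.571% (male) and from 2.34% to 0.860% (female) on thinning to 1000 UMIs, and to 1.14% and 1.02% at 2000. The weakly dopaminergic share of male members was 21.7% with classes at 0 to 1 and 50.0% at 0 to 4, and that of female members 45.7% at 0 to 4 and 17.9% with 1000 or more features. In their matched nuclei these shares were 11.8% and 35.7% (male) and 33.5% and 11.6% (female). With the 13 members of 2 Slc17a6 UMIs, of which the weakly dopaminergic class holds 2 male nuclei and 1 female nucleus, 16 of 667 tested genes were called in the dopaminergic class, 0 in the weakly dopaminergic class, 2 for the difference between classes and 2 between the classes of members. There Rbfox1 reversed in the weakly dopaminergic class, to a log2 fold change of -1.76 that did not pass. No other called fold change of the genes named by rule or of the study's subtype genes reversed under the alternatives run. Many calls were lost: of the 24 genes named by rule over all members, 10 were still called with 3 matched nuclei per member and 7 without the library block. Of the 24 of the weakly dopaminergic class, 14 were still called without oligodendrocyte transcripts, 1 with classes at 0 to 1 and 2 or more UMIs and 0 without the block. Of the 24 of the dopaminergic class, 15 were still called without the deepest 5% of nuclei and 9 without the block. The library block pairs members with matched nuclei of their own pool, so each main value is the paired one and the value without the block is the unpaired one.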

Other observations

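Slc18a2 differed between the libraries more than any other gene of the fixed lists with at least 40 UMIs in members. It was at 333 CPM in male and 981 CPM in female members, 2.95-fold higher in the female library, and at 454 and 1087 CPM in matched nuclei, 2.40-fold higher. Slc6a3 was 1.60-fold and Th 1.31-fold higher in female members. With 1 library of each sex these are values of 2 pools, and no test was made.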
